A study of Mus musculus with 5 samples.

Results

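The genes described are 10 mouse amino acid transporters known from lymphocytes, Slc1a5, Slc3a2, Slc6a20a, Slc7a1, Slc7a5, Slc7a6, Slc7a7, Slc7a8, Slc38a1 and Slc38a2. They were chosen by name and found through their NCBI gene identifiers among the 27179 identifiers of the count table. All 10 were present, and all 10 passed the filter on low counts. Transcripts had been counted in 3 libraries of ILC3 (group 3 innate lymphoid cells) and 2 libraries labelled CD4 T, all from C57BL/6 mice described as wild type. ILC3 were sorted for CD45, CD127 and a GFP reporter with CD3-positive cells left out, and CD4 T for CD45, CD3 and CD4. The series' design names 3 mice, and the labels do not tie a library to a mouse or give an age. The series' title speaks of the intestine, while the labels of the samples name no organ. Only the spread between these libraries enters the p-values, and part of it may be technical.

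Lymphocytes take up amino acids through carriers with overlapping substrates. The SLC7 light chains LAT1, LAT2, y+LAT1 and y+LAT2 each pair with a shared heavy chain, CD98hc, which brings them to the cell surface, where they exchange large neutral or cationic amino acids. ASCT2 and the SNAT carriers use the sodium gradient and move glutamine and other small neutral amino acids, and the glutamine they accumulate can be exchanged for leucine by LAT1. In T cells, antigen and IL-2 are known to raise LAT1 and CD98hc, and uptake of leucine and glutamine feeds the growth kinase mTORC1.

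Of the 10 transporters, 2 were lower in ILC3 than in the libraries labelled CD4 T, and both encode light chains of the leucine-type carriers. Slc7a5 (LAT1) had a mean of 3.92 ± 2.09 CPM over the ILC3 libraries (SD, n = 3) against 25.6 ± 3.39 CPM over the CD4 T libraries (SD, n = 2). Slc7a8 (LAT2) had no count in any ILC3 library and 10.3 ± 7.39 CPM in CD4 T. The other 8 members, among them the heavy chain Slc3a2 and the glutamine carriers Slc1a5, Slc38a1 and Slc38a2, did not pass the test. CPM are counts per 1000000 counts on the TMM scale, a scaling of library sizes by the bulk of genes, and a gene was called at an edgeR adjusted p under 0.05 over all 12747 genes tested. Of all genes tested, 13.7% were called, 6.46% higher and 7.21% lower in ILC3, so 2 of 10 is near the share over all genes. The median log2 difference of the 10 members was -0.08, beside -0.10 over all genes tested. No member was called higher by edgeR, while 2 had an unadjusted p under 0.05 in that direction, and DESeq2 called 2 higher and limma-voom 1. Over all 12747 genes tested, 2030 were higher and 2226 lower at an unadjusted edgeR p under 0.05. DESeq2 called 1914 of them higher and 1858 lower, and limma-voom 1317 and 1402.

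The labels were read against marker genes before the members. Depth ranged from 15123715 to 25956023 counts per library. Cd4 was 2.82 to 6.28 CPM in ILC3 and 142 and 90.0 CPM in CD4 T, and it was called lower. Of the CD3 chains, Cd3d was lower in ILC3 without overlap, at 63.8 to 146 CPM against 461 and 779 CPM. The chains Cd3e (20.6 to 69.9 CPM against 54.9 and 201 CPM) and Cd3g (160 to 470 CPM against 280 and 1310 CPM) overlapped and were not called. Ptprc, which encodes CD45, a marker of both sorts, was 172 to 213 CPM in ILC3 and 1169 and 959 CPM in CD4 T, and Il7r, which encodes CD127, 1027 to 1489 CPM against 212 and 227 CPM. Of the 8 ILC3 markers all 8 were higher in ILC3, with sums of 25090 to 27450 CPM against 327 and 539 CPM. Of the 8 T cell markers 4 were lower, with sums of 274 to 741 CPM in ILC3 and 1156 and 2711 CPM in CD4 T and Cd6 at 0 in ILC3. Genes listed as markers of other cells were also counted in libraries of both groups. Of the 8 plasmacytoid dendritic cell markers, 7 were lower in ILC3, with summed levels of 181 to 249 CPM in ILC3 and 2399 to 3287 CPM in CD4 T. Most of the ILC3 sums was Bst2 (136, 175 and 120.5 CPM), which was not called. Tcf4 (17.1 to 36.7 CPM) and Ccr9 (11.7 to 30.2 CPM) came next in ILC3. None was at 0 in a whole group, but Siglech, Klk1 and Cox6a2 were at most 0.234 CPM in ILC3. Of the 9 macrophage and monocyte markers tested, 8 were lower in ILC3, with sums of 173 to 218 CPM against 2079 to 3083 CPM and Mertk at 0 in ILC3. Of the 8 conventional dendritic cell markers, 4 were lower and 2 higher, with sums of 103 to 133 CPM against 505 to 541 CPM and Clec10a at 0 in ILC3. Zbtb46 (20.95 to 44.1 CPM in ILC3) and Batf3 (40.7 to 63.6 CPM) were the higher ones. With Xcr1 (19.5 to 40.0 CPM, not called) they made up most of the ILC3 sums. Clec9a and Itgax were at most 0.05845 CPM in ILC3. Of the 6 CD8 and gamma-delta T cell markers, 4 were lower and 1 higher, with sums of 688 to 998 CPM against 2893 and 5031 CPM and Gzmk at 0 in ILC3. Cd8a (245 and 189 CPM) and Cd8b1 (336 and 433 CPM) each lay above Cd4 in both libraries labelled CD4 T. Siglech, of the plasmacytoid dendritic cell list, did so too (745 and 814 CPM). The higher marker of the CD8 and gamma-delta T cell list, Trdc, was 193 to 475 CPM in ILC3 and 0.832 and 2.27 CPM in CD4 T. The 9 intestinal epithelial markers summed to 11.5 to 15.6 CPM in ILC3 and to 42.1 and 1950.0 CPM in CD4 T replicates 1 and 2 (Krt8, Krt20 and Cdh1 at 0 in ILC3; 1 of 4 tested lower), and Lyz1 alone gave 1881 CPM of the last. B and plasma cell markers, led by Jchain, summed to 18820, 101600 and 83260 CPM in ILC3 replicates 1 to 3. In CD4 T they summed to 34810 and 21340 CPM, with Pax5 at 0 in both groups. Stromal and endothelial markers stayed at 34.9 to 51.3 CPM in all libraries. In bulk samples, fewer cells of a type and less RNA per cell cannot be told apart, and the part of these other cells in the differences of the transporters was not tested.

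**Figure D1:**
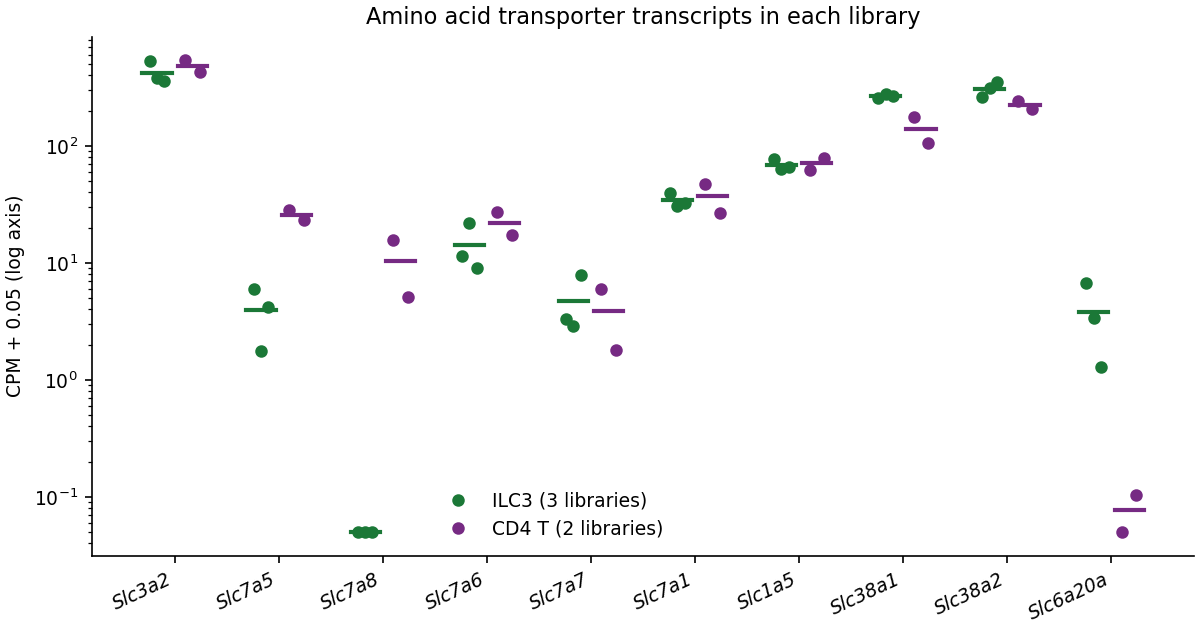
CPM plus 0.05 on a log axis for the 10 transporters, 1 point per library: green for ILC3 (3), purple for CD4 T (2), with bars at the group means. Slc7a5 and Slc7a8 lie lower in every ILC3 library, Slc6a20a, Slc38a1 and Slc38a2 higher, and the groups overlap for the other 5 genes.

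The heavy chain Slc3a2 (NCBI gene 17254, chromosome 19, 8706882 to 8723369 in GRCm38, minus strand) was the most abundant member in both populations. It stood at 527, 383 and 360 CPM in ILC3 replicates 1 to 3 and at 538 and 425 CPM in CD4 T replicates 1 and 2. The groups overlapped, and ILC3 over CD4 T came to -0.19 on the log2 scale (SE 0.31, edgeR adjusted p = 0.728). Without CD4 T replicate 1 the difference was 0.00.

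Slc7a5 (chromosome 8, 121881146 to 121907686, minus strand) encodes LAT1, the sodium-independent exchanger of leucine, tryptophan and other large neutral amino acids. It was 5.88, 1.73 and 4.15 CPM in the ILC3 libraries, from 163, 27 and 71 counts. In CD4 T it was 28.0 and 23.2 CPM, from 707 and 429 counts. Every ILC3 library lay below both CD4 T libraries, as did the ILC3 libraries for 29.6% of all genes tested. Among the members the groups did not overlap for 5, beside 55% of all genes tested. The log2 fold change was -2.70 (SE 0.61, edgeR adjusted p = 0.0364), a 6.51-fold lower level in ILC3. The direction was the same without each library in turn, but the call was lost each time, with edgeR adjusted p of 0.0642, 0.0755 and 0.0819 without ILC3 replicates 1 to 3 and 0.133 and 0.0593 without CD4 T replicates 1 and 2.

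Because Slc7a5 and Slc3a2 work as a pair, their counts were also set against each other within each library, which removes the scaling between libraries. Slc3a2 had 89.6, 222 and 86.6 counts for each count of Slc7a5 in ILC3 replicates 1 to 3. In CD4 T the ratios were 19.2 and 18.3. The ratios of the groups did not overlap, and the lowest of ILC3 lay well above both of CD4 T. They rest on the same Slc7a5 counts as the fit, with 27 behind the ratio of 222, and carry no test of their own.

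Slc7a8 (chromosome 14, 54722215 to 54781886, minus strand) encodes LAT2, a neutral amino acid exchanger that also accepts small substrates. It had 0 counts in all 3 ILC3 libraries, which allows up to 0.108, 0.192 and 0.175 CPM (3 counts per library). In CD4 T it had 392 and 94 counts, or 15.5 and 5.09 CPM, so replicate 1 lay above replicate 2. Against a floor of 3 counts over all ILC3 libraries the level was at least 224-fold lower in ILC3 (edgeR adjusted p = 0.0213). Leaving out ILC3 replicate 1 ended the call and lowered this bound to 121 (edgeR adjusted p = 0.0522), as did leaving out CD4 T replicate 1, with a bound of 103 (0.143). These floors, and the counting intervals given further on, cover counting error only, because PCR copies without molecular tags are not separate molecules.

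Among the genes tested whose levels followed that of Slc7a8 most closely over the 5 libraries were Ddr1, a collagen receptor kinase, and Dnah2, a dynein heavy chain. Likeness was measured as the root mean square difference of log2(CPM + 0.5) after each gene's mean was removed, and it was 0.102 and 0.135. Ddr1 had no count in ILC3 and was 12.9 and 4.93 CPM in CD4 T. Dnah2 was 0, 0.0641 and 0 CPM in ILC3 and 14.7 and 6.34 CPM in CD4 T. The marker sums beside them ran in both directions between the CD4 T libraries, at 3287 and 2399 CPM for plasmacytoid dendritic cells and 2079 and 3083 CPM for macrophages and monocytes. Single markers within each sum also ran both ways. Tcf4 was 468 and 168 CPM and Siglech 745 and 814 CPM in CD4 T replicates 1 and 2. Csf1r was 222 and 102 CPM there, and Lyz2 658.5 and 1592 CPM. Whether Slc7a8 came with such cells was not tested.

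The remaining light chains among the members carry cationic amino acids in exchange for neutral ones. Slc7a6 (y+LAT2; chromosome 8, 106168219 to 106198714, plus strand) was 11.4, 21.8 and 9.002 CPM in ILC3 and 26.9 and 17.2 CPM in CD4 T. ILC3 replicate 2 lay above CD4 T replicate 2, and the difference did not pass (log2 -0.65, SE 0.52, edgeR adjusted p = 0.433). Slc7a7 (y+LAT1; chromosome 14, 54369442 to 54420068, minus strand) was 3.25, 2.82 and 7.89 CPM in ILC3 and 5.95 and 1.73 CPM in CD4 T. Its groups overlapped (log2 0.27, SE 0.94, edgeR adjusted p = 0.873). The direction of the Slc7a7 value turned with library size alone (-0.26), without ILC3 replicate 3 (-0.34) and without CD4 T replicate 2 (-0.34), and the value was 1.43 without CD4 T replicate 1. Exons of Slc7a7 share 232 bases with Oxa1l on the opposite strand, and whether the counting used strand is not stated, so reads there cannot be told apart.

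Levels of different genes were compared per kilobase of exon, as CPM divided by the summed length of a gene's coding transcript exons in GENCODE M21. On this scale the 4 light chains summed to 5.95, 7.39 and 6.58 CPM per kilobase in ILC3, below the 21.2 and 13.1 of CD4 T. Slc7a6 gave 51.1%, 78.8% and 36.5% of that sum in ILC3 and 33.8% and 35.0% in CD4 T. The share of Slc7a5 was 28.1%, 6.66% and 17.9% in ILC3, below the 37.6% and 50.5% of CD4 T. Slc7a7 gave 20.8%, 14.5% and 45.6% in ILC3, above the 10.7% and 5.03% of CD4 T, and Slc7a8 0% in ILC3 and 17.9% and 9.52% in CD4 T. The heavy chain exceeded the 4 light chains together by 29.3, 17.2 and 18.1 times in ILC3 and by 8.40 and 10.7 times in CD4 T. Slc7a11, another light chain of Slc3a2 that is not among the 10 members, was left out of these sums. It was 0.0361 to 0.0641 CPM in ILC3 and 13.9 and 6.34 CPM in CD4 T. These shares rest on the same counts as the fits of Slc7a5 and Slc7a8 and carry no test of their own.

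**Figure D2:**
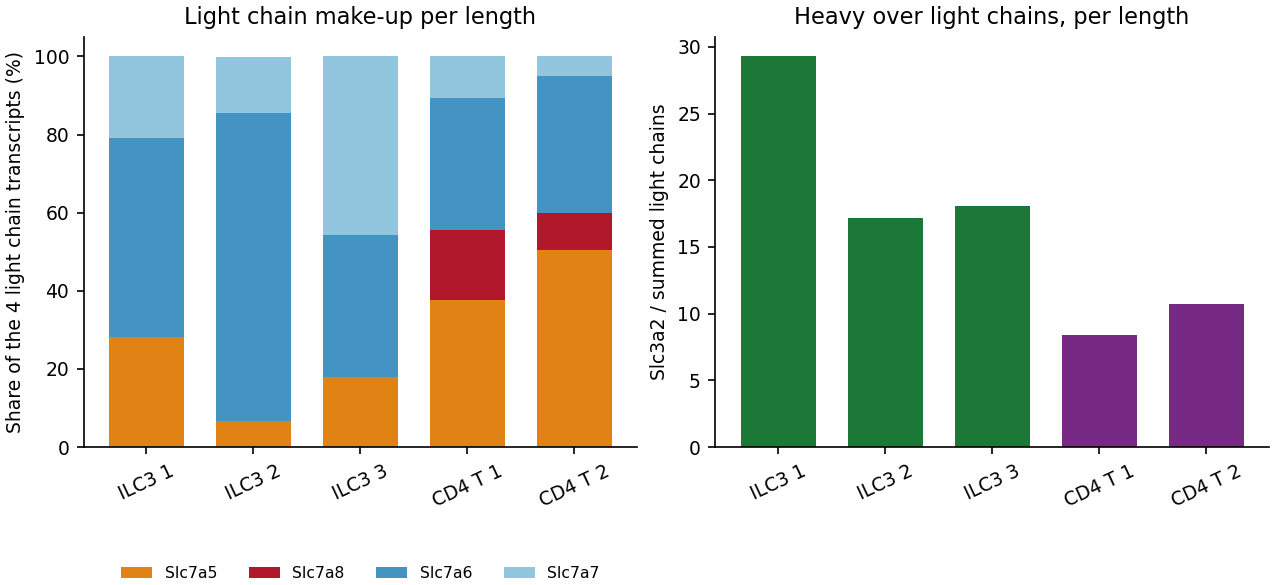
Left, the share (%) of Slc7a5, Slc7a8, Slc7a6 and Slc7a7 in the sum of these 4 light chain levels per kilobase in each library. Slc7a11, another light chain, is left out. Right, the level of the heavy chain Slc3a2 per kilobase over that sum, 17.2 to 29.3 in the ILC3 libraries (green) and 8.40 and 10.7 in the libraries labelled CD4 T (purple).

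Slc7a1 (chromosome 5, 148327410 to 148399904, minus strand) encodes CAT1, the arginine and lysine carrier that needs no heavy chain. It was 39.2, 30.7 and 32.6 CPM in ILC3 and 47.6 and 26.4 CPM in CD4 T, so all ILC3 libraries lay between the CD4 T libraries. The log2 difference was -0.12 (SE 0.36, edgeR adjusted p = 0.86). Leaving out CD4 T replicate 1 turned it to 0.38.

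None of the glutamine carriers passed the test in edgeR. Slc1a5 (ASCT2; chromosome 7, 16781334 to 16798274, plus strand) was 76.7, 63.0 and 66.2 CPM in ILC3 and 62.0 and 79.2 CPM in CD4 T, with the ILC3 libraries again inside the range of CD4 T. Its log2 difference was -0.04 (SE 0.28, edgeR adjusted p = 0.939), and 0.02 and 0.16 without ILC3 replicate 2 and CD4 T replicate 2. Slc38a1 (SNAT1; chromosome 15, 96571418 to 96643438, minus strand) was 257, 275 and 268 CPM in ILC3 and 175 and 106 CPM in CD4 T. The ILC3 libraries were close to each other and above both CD4 T libraries, as were those of 25.5% of all genes tested. The difference of 0.92 on the log2 scale (SE 0.32) did not pass in edgeR (adjusted p = 0.0963), whereas DESeq2 gave an adjusted p = 0.018 and limma-voom 0.0459. Without CD4 T replicate 1 the edgeR value was 1.34 and passed (adjusted p = 0.0422), and with library size alone it was 0.42 (0.494).

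Slc38a2 (SNAT2; chromosome 15, 96687392 to 96699728, minus strand), a carrier that amino acid shortage is known to induce, was 263, 312 and 351 CPM in ILC3 and 241 and 208 CPM in CD4 T. The groups did not overlap, but the log2 difference of 0.46 (SE 0.28) did not pass (edgeR adjusted p = 0.308), and it was -0.06 with library size alone. Slc38a1 and Slc38a2 are neighbours, with a gap of 43953 bases and no protein-coding gene between them in RefSeq. The counts of Slc38a1 for each count of Slc38a2 were 0.978, 0.879 and 0.764 in ILC3, against 0.725 and 0.509 in CD4 T. This ratio needs no scaling between libraries, and ILC3 replicate 3 and CD4 T replicate 1 were close on it.

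Slc6a20a (chromosome 9, 123636907 to 123678832, minus strand) encodes an imino acid carrier that takes up proline with sodium. It had 186, 52 and 21 counts in the ILC3 libraries, or 6.71, 3.33 and 1.23 CPM, and 0 and 1 count in CD4 T. The ILC3 libraries spanned a wide range, and each lay above both CD4 T libraries. The summed level was 187 times that of CD4 T, with an exact 95% counting interval of 33.3 to 7420. Without ILC3 replicate 1 this ratio was 97.5 (17.0 to 3900), and without CD4 T replicate 1 it was 79.1 (14.1 to 3140). Without CD4 T replicate 2 no count was left in CD4 T, and the level was at least 36.0-fold higher in ILC3. The difference just missed the threshold (edgeR adjusted p = 0.0546), and over the 15 alternatives the adjusted p ran from 0.000844 to 0.179, under 0.05 in 4. Its transcript aligns with that of the neighbouring copy Slc6a20b at 90.9% identity over 1147 bases, and Slc6a20b had 1 count over all libraries. Its exons share 563 bases with the antisense gene Gm17120, which was not analysed here, so reads there cannot be told apart. They also share 22 bases with Ccr9 on the opposite strand, a gene that was lower in ILC3, at 11.7 to 30.2 CPM against 685 and 300 CPM.

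Promoters are shown for Slc7a8 and Slc6a20a, the members with 0 or 1 count over a whole population. Each is the 250 bases before the transcription start in RefSeq (GRCm38.p6), minus strand, read 5′ to 3′ toward the start at chr14:54781887-54782136 and chr9:123678833-123679082, with the GC box GGGCGG or its reverse complement in capitals.
Slc7a8: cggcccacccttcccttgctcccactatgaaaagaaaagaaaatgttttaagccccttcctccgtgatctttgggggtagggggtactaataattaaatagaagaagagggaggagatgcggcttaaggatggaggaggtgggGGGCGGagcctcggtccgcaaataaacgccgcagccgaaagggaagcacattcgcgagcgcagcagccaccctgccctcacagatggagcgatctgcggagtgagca
Slc6a20a: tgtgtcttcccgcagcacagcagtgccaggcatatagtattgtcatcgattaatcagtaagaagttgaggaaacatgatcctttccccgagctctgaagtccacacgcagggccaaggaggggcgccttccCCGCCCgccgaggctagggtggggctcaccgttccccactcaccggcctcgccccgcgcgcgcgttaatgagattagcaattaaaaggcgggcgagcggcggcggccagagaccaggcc
RefSeq windows were matched for 7 of the 10 members. The motifs searched on both strands included the E-box CACGTG, the amino acid response element TGATGNAA, the GC box GGGCGG, the RUNX core TGTGGT and the PU.1 core GAGGAAGT. In the windows of Slc7a8 and Slc6a20a only the GC box was found, 107 and 119 bases before the start. A GC box was present in 32.7% of all 32851 promoter windows of this length. The shares of the other motifs named were 6.02% for the E-box, 3.45% for the response element, 14.0% for the RUNX core and 2.44% for the PU.1 core. A match is a run of letters and shows no binding.

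By level per kilobase, the order in ILC3 was Slc3a2 (140 ± 30.0), Slc38a2 (66.3 ± 9.45), Slc38a1 (24.9 ± 0.809), Slc1a5 (24.8 ± 2.61), Slc7a1 (4.76 ± 0.625), Slc7a6 (3.75 ± 1.82), Slc7a7 (1.77 ± 1.07), Slc7a5 (1.11 ± 0.593), Slc6a20a (0.92 ± 0.677) and Slc7a8 (0), in CPM per kilobase as mean ± SD (n = 3). The libraries' ranges of Slc38a1 and Slc1a5 overlapped, as did those of all neighbours from Slc7a1 down to Slc6a20a. The first depends on the length used. Per kilobase of the longest coding transcript Slc38a1 was 35.4 to 37.8 and Slc1a5 22.8 to 27.8 in ILC3, with no overlap, while in CD4 T Slc1a5 (22.4 and 28.7) and Slc38a1 (14.6 and 24.1) then overlapped. In CD4 T the order was Slc3a2 (159 ± 26.5), Slc38a2 (48.3 ± 5.03), Slc1a5 (25.6 ± 4.41), Slc38a1 (13.1 ± 4.54), Slc7a5 (7.29 ± 0.964), Slc7a6 (5.88 ± 1.84), Slc7a1 (5.15 ± 2.08), Slc7a8 (2.52 ± 1.81), Slc7a7 (1.46 ± 1.13) and Slc6a20a (0.00663 ± 0.00938; n = 2). There, neighbours from Slc7a5 down to Slc7a7 overlapped. Slc7a5 ranked 5 of the members in CD4 T and 8 in ILC3. Slc3a2, Slc38a1 and Slc38a2 together took 88.0% to 89.0% of the members' counts in ILC3 and 83.7% and 82.9% in CD4 T.

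**Figure D3:**
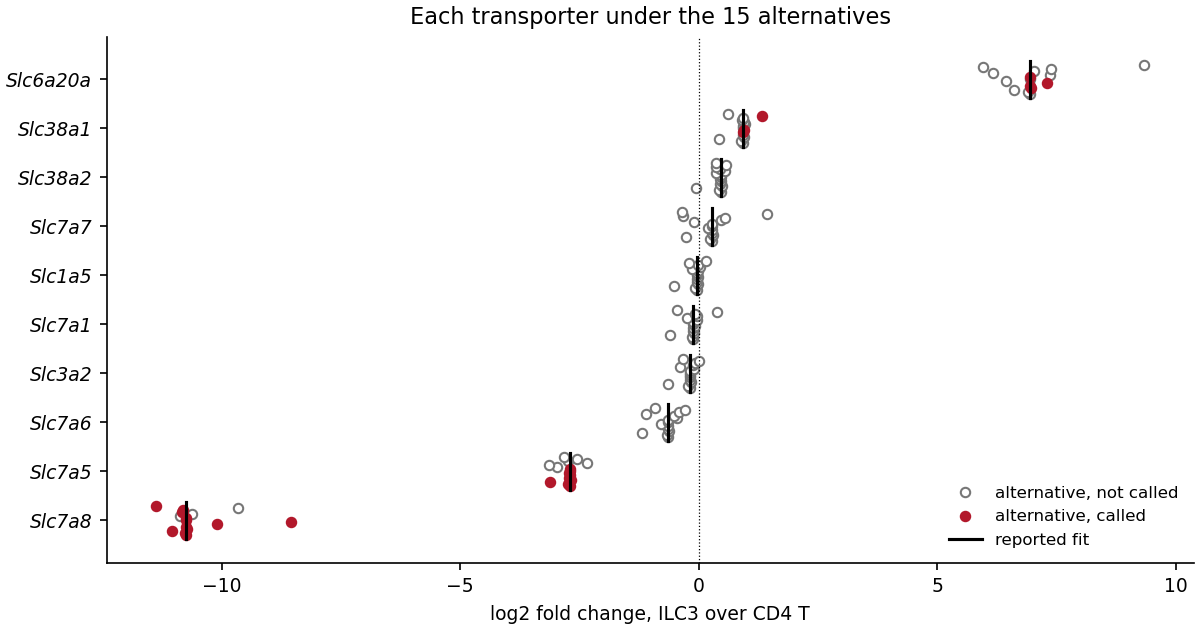
log2 fold change of ILC3 over CD4 T (x axis) for each transporter in the reported edgeR fit (black bar) and under the 15 alternatives (points, filled where the adjusted p is under 0.05). Slc7a5 and Slc7a8 stay below 0 under all 15 and are filled in 9 and 12; positions of Slc7a8 are fitted values against a group with no count and depend on the prior count.

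Other amino acid transporters were read from a list of 40, of which 17 passed the filter and 12 had no count in any library. Among the 17, 1 was higher in ILC3, 2 were lower and 14 were not called, with a median log2 difference of -1.56. DESeq2 called 2 higher and 6 lower, as many as had an unadjusted edgeR p under 0.05, and limma-voom 2 and 4. Over all 12747 genes tested, 2030 were higher and 2226 lower at an unadjusted edgeR p under 0.05. DESeq2 called 1914 and 1858 of all genes and limma-voom 1317 and 1402. Slc6a13, a carrier of GABA and taurine, was 149, 167 and 169 CPM in ILC3 and 0.0793 and 0.217 CPM in CD4 T. All ILC3 libraries lay far above both CD4 T libraries (log2 10.10, SE 0.555, edgeR adjusted p = 0.000655), and leaving out CD4 T replicate 1 or 2 gave 9.51 or 10.90. Slc7a11, the cystine and glutamate exchanger and another light chain of Slc3a2, had 3 counts over ILC3 and was 13.9 and 6.34 CPM in CD4 T. Its summed level was 216 times higher in CD4 T, and counting error allows 73.4 to 1050 times (edgeR adjusted p = 0.00924). Without CD4 T replicate 1 the ratio was 128 (42.6 to 628) and the call was lost (edgeR adjusted p = 0.0637). The taurine carrier Slc6a6 was 10.3, 10.2 and 14.3 CPM in ILC3 and 110 and 44.9 CPM in CD4 T, so every ILC3 library lay lower. Its log2 fold change was -2.74 (SE 0.447, edgeR adjusted p = 0.0141). Leaving out ILC3 replicate 1 (0.0607), ILC3 replicate 2 (0.0591) or CD4 T replicate 1 (0.0518, log2 -1.95) ended this call.

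mTORC1 and its amino acid sensors form the machinery downstream of leucine and arginine uptake. Of 41 listed genes 39 were tested, and 3 were lower in ILC3, 0 higher and 36 not called (median log2 -0.28). At an unadjusted edgeR p under 0.05, 3 were higher and 6 lower, and DESeq2 called 3 higher and 5 lower and limma-voom 2 and 4. The same counts over all 12747 genes tested were 2030 and 2226, 1914 and 1858, and 1317 and 1402. Lamtor4, a subunit of the lysosomal Ragulator, was 31.6, 50.5 and 38.3 CPM in ILC3 and 216 and 119 CPM in CD4 T (log2 -2.06, edgeR adjusted p = 0.0179). Flcn, which encodes folliculin, an activator of RagC, stood at -1.85 on the log2 scale (edgeR adjusted p = 0.0235), and Rragc, which encodes RagC itself, -1.35 (edgeR adjusted p = 0.038). In each of these 3 called genes every ILC3 library lay below both CD4 T libraries, as for 29.6% of all genes tested. Over the 39 tested genes of the list, 11 lay lower in ILC3 without overlap and 6 higher. None of the 3 calls held without ILC3 replicate 1 (edgeR adjusted p from 0.0664 to 0.105), without ILC3 replicate 3 (0.0639 to 0.0985) or without CD4 T replicate 1 (0.0625 to 0.0967). Without ILC3 replicate 2 the calls of Flcn (0.0765) and Rragc (0.07) were lost, and that of Rragc without CD4 T replicate 2 (0.0673).

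The GCN2 and ATF4 pathway raises transporters and synthetic enzymes when amino acids are short. Of 20 tested genes of 25, 1 was higher in ILC3, 0 were lower and 19 were not called (median log2 0.12). At an unadjusted edgeR p under 0.05, 5 were higher and 2 lower, and DESeq2 called 5 higher and 2 lower and limma-voom 5 and 1. The same counts over all 12747 genes tested were 2030 and 2226, 1914 and 1858, and 1317 and 1402. The higher gene was Pycr1, the last enzyme of proline synthesis, at 2.81, 4.80 and 6.02 CPM in ILC3 with 1 count in CD4 T. Its summed level was 185 times higher in ILC3, and counting error allows 32.9 to 7340 times (edgeR adjusted p = 0.0309). Without CD4 T replicate 2 the ratio was 107 (19.0 to 4240), and without CD4 T replicate 1 no count was left in CD4 T and the level was at least 26.1-fold higher. Pycr1 lost its call without each library in turn (edgeR adjusted p from 0.0505 to 0.0836).

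All 20 cytosolic aminoacyl-tRNA synthetases, which charge tRNAs with amino acids, were tested, and 1 was higher, 0 lower and 19 not called (median log2 -0.51). At an unadjusted edgeR p under 0.05, 2 were higher and 5 lower, and DESeq2 called 2 higher and 4 lower and limma-voom 2 and 2. The same counts over all 12747 genes tested were 2030 and 2226, 1914 and 1858, and 1317 and 1402. Eprs, the synthetase for glutamate and proline, was 749, 626 and 865 CPM in ILC3 and 99.1 and 152 CPM in CD4 T. The groups were far apart, at 2.57 on the log2 scale (SE 0.36, edgeR adjusted p = 0.00974), and the call held without each library in turn.

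Among 17 tested genes of glutamine, branched-chain, arginine and polyamine metabolism, 2 were higher, 1 was lower and 14 were not called (median log2 -0.30). DESeq2 called 3 higher and 4 lower, limma-voom 3 and 3, and 4 and 5 had an unadjusted edgeR p under 0.05. The same counts over all 12747 genes tested were 1914 and 1858, 1317 and 1402, and 2030 and 2226. Odc1, the first enzyme of polyamine synthesis from ornithine, was 1858, 1312 and 1715 CPM in ILC3 and 140 and 295 CPM in CD4 T (log2 2.91, edgeR adjusted p = 0.0122). Its difference was 3.55 without CD4 T replicate 2. Arg1, the arginase that makes ornithine, was 336, 471 and 421 CPM in ILC3 and 6.78 and 0.541 CPM in CD4 T (log2 6.79, edgeR adjusted p = 0.0155), with 9.55 and 5.93 without CD4 T replicates 1 and 2. Got1, the cytosolic aspartate aminotransferase, was 65.8, 50.5 and 28.7 CPM in ILC3 and 271 and 226 CPM in CD4 T (log2 -2.36, edgeR adjusted p = 0.0147). The Got1 call was lost without ILC3 replicate 2 (0.0594) and CD4 T replicate 1 (0.0575).

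MYC is known to drive Slc7a5, Slc3a2 and Slc1a5 in activated lymphocytes. Myc itself was 15.7, 7.75 and 7.13 CPM in ILC3 and 16.65 and 17.4 CPM in CD4 T. It was not called (log2 -0.74, SE 0.527, edgeR adjusted p = 0.377). All 12 genes of the MYC network list were tested, and 1 was higher, 3 were lower and 8 were not called (median log2 -0.56). The counts were the same in DESeq2, in limma-voom and at an unadjusted edgeR p under 0.05. Over all 12747 genes tested these gave 1914 and 1858, 1317 and 1402, and 2030 and 2226. Mycl had no count in ILC3 and 9.95 and 13.7 CPM in CD4 T, at least 233-fold lower in ILC3 (edgeR adjusted p = 0.0143). Leaving out CD4 T replicate 1 ended that call (0.0656), and leaving out ILC3 replicate 1 lowered the bound to 126. Mnt and Mxi1, which encode partners of MAX that oppose MYC, had log2 fold changes of -2.85 and -2.32 (edgeR adjusted p = 0.0169 and 0.0195). Both calls were lost without ILC3 replicate 1 (0.0646 and 0.0502), 2 (0.0608 and 0.0605) or 3 (0.0546 and 0.0586), that of Mnt without CD4 T replicate 1 (0.0926, log2 -2.02) and that of Mxi1 without replicate 2 (0.0521). Mycn was 2.02, 1.35 and 5.26 CPM in ILC3 with no count in CD4 T, at least 40.2-fold higher (edgeR adjusted p = 0.0473). The bound fell to 25.9 without ILC3 replicate 3 and to 17.0 and 23.2 without CD4 T replicates 1 and 2, and the call was lost without each library in turn (edgeR adjusted p from 0.075 to 0.135). Over all 6 lists 15 of 125 tested genes were called, near the 13.7% of all genes tested.

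**Figure D4:**
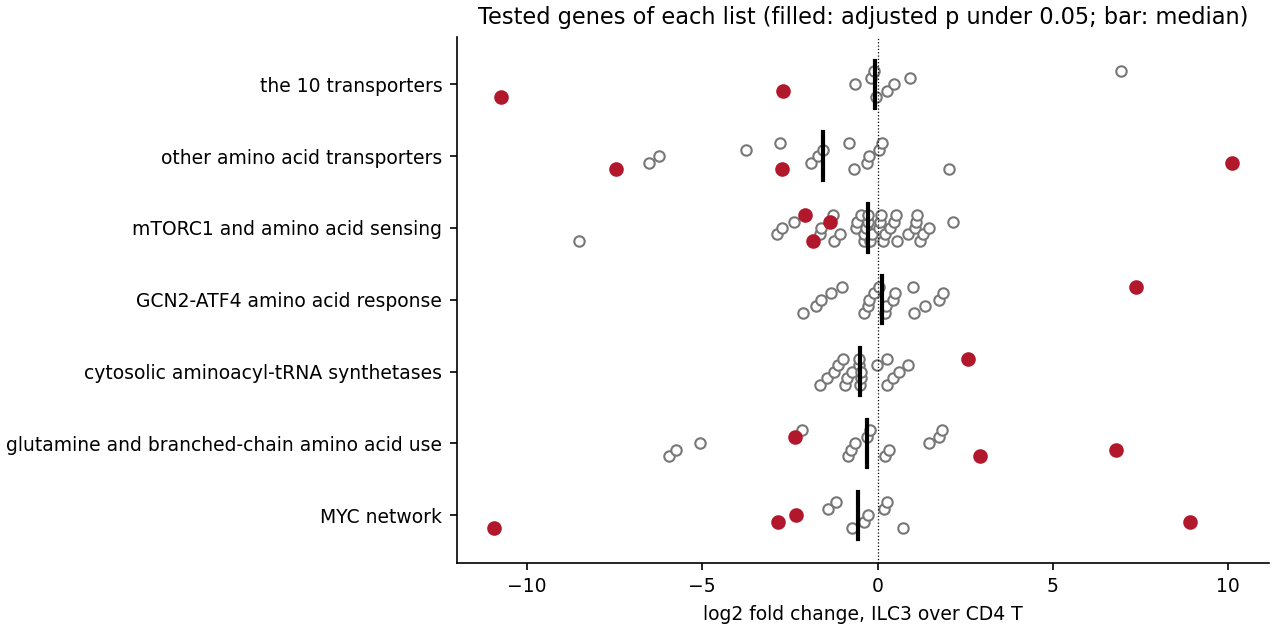
log2 fold change of ILC3 over CD4 T for each tested gene of the 10 transporters and of 6 related lists, filled where the edgeR adjusted p is under 0.05, with a bar at the list's median. The medians lie between -1.56 and 0.12, and positions of genes with no count in a group are fitted values.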

How the data were processed

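Transcripts were measured in 3 ILC3 and 2 CD4 T libraries made with the SMARTer Ultra Low Input kit, version 4, per the labels' protocols. The authors deposited whole-number counts per NCBI gene, with no normalization. CASAVA 1.8.2, STAR 2.3.0 and mm10 are named in the submitters' processing notes. Neither the counting tool nor its annotation and strand setting is stated in the labels. Of 27179 identifiers, 25275 matched a RefSeq GRCm38.p6 symbol; the other 1904 (0.121% to 0.422% of counts) stayed in the fits.

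edgeR 4.0.16 in R 4.3.3 (filterByExpr, TMM, glmQLFit, glmQLFTest; 3 residual degrees of freedom, no covariate) compared ILC3 with CD4 T, with Benjamini-Hochberg adjustment over 12747 genes. A SE is the log2 fold change over the square root of F. TMM factors ran from 0.744 to 1.25. Lengths came from GENCODE M21 and transcript alignments from BLAST 2.17.0. Of each related list, up to 4 called genes with the smallest p, both directions included, were named, with the 3 genes nearest in pattern to the member of smallest p and genes of the sort (1 of each, and 1 motif searched, are not reported here); Slc6a20b, Gm17120, Ccr9 and Oxa1l were named for their position or likeness. Myc, not called, was named because it is known to drive some of the members. Promoter motifs were chosen after the counts were seen. The members and lists were chosen with earlier results of these data known. The alternatives were other scalings, filters and dispersion, DESeq2 1.42.0, limma-voom (limma 3.58.1), receptor segment genes left out, each library left out, and a replicate block. Ratios of summed counts without a library keep the scaling of the full fit.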

Additional observations from a re-analysis of the deposited data

How the results depend on the processing

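Over the 15 alternatives, no called transporter and no called gene named from the related lists changed direction. Slc7a5 was called in 9 of 15 and Slc7a8 in 12. The number of the 10 transporters called higher in ILC3 was 0, and 1 without the filter on low counts, with the filter of 1 CPM in 2 libraries, in limma-voom and with receptor segment genes left out, 2 in DESeq2, and 0 to 1 with a library left out. The number called lower was 2, and 0 to 1 with a library left out. Over all genes, 824 higher and 919 lower became 384 and 1502 with library size alone, 1914 and 1858 in DESeq2 and 1317 and 1402 in limma-voom. Without the filter 1250 were higher. With a library left out they ran from 269 to 1712 and from 306 to 960. Over the 6 related lists, 6 higher and 9 lower became 16 and 24 in DESeq2, 15 and 17 in limma-voom, 12 higher without the filter, 15 lower with library size alone, and 4 to 15 and 1 to 9 with a library left out.

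Library size alone moved the median log2 difference of all genes from -0.10 to -0.60, no filter to -0.25, and leaving out CD4 T replicate 2 to 0.04. Of the genes called, 47.3% were higher in ILC3 as reported and 20.4% with library size alone. With the replicate block, 1 residual degree of freedom remained, and 215 genes were higher and 305 lower, 0 of the 10 transporters either way, and 2 and 0 over the related lists; Slc7a7, not called, turned to -0.10. Same-numbered libraries deviated with correlations of -0.02 and -0.03, so the numbers gave no sign of pairing. With 2 CD4 T libraries, though, the deviations of one mirror those of the other, so this check could hardly show a pairing. Per kilobase of the longest coding transcript, an alternative chosen after seeing the data, Slc38a1 was 36.7 in ILC3 and 19.4 in CD4 T. Within each group every member kept the rank it had by summed exon length, though which ranges overlapped changed for Slc38a1 and Slc1a5. Depth limits Slc6a20a, Slc7a7 and Slc7a8, whose summed counts over a group were 0 to 486. It also limits Slc7a5 in ILC3, with 261 summed counts, 27 of them in replicate 2. The cause of these shifts was not tested.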
